A study of Homo sapiens with 9 samples.

Results

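The interleukin 7 (IL7) receptor, JAK and STAT5 axis was followed in ALL-SIL cells, an established human T-cell acute lymphoblastic leukemia (T-ALL) line, through 10 genes: *IL7R*, *IL2RG*, *IL2RA*, *JAK1*, *JAK3*, *STAT5A*, *STAT5B*, *SOCS2*, *CISH* and *PIM1*. Every array probe whose transcript identifier mapped to one of these symbols was taken, which gave 13 of 57176 probes for 10 of 19722 named genes, and all 13 were among the 33595 probes tested. The 9 arrays held 3 groups of 3 biological replicates, electroporated with control siRNA, *PHF6* siRNA1 or *PHF6* siRNA2 and collected 96 h later according to most labels, or 72 h according to the sample descriptions. The medium named in the labels held serum, glutamine and antibiotics, and no added cytokine is named. All groups came from 1 cell line, which is known to carry a *NUP214-ABL1* fusion, so this constitutive tyrosine kinase was common to control and siRNA cells. A Silencer Select siRNA and an ON-TARGETplus pool were used against *PHF6*, and the sources used here do not say which is siRNA1. The question was how transcripts of this signaling axis differed when *PHF6*, a chromatin-associated zinc finger gene that is recurrently mutated in T-ALL, was knocked down.

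IL7 binds a receptor made of the IL7R alpha chain and the common gamma chain encoded by *IL2RG*. The kinases JAK1 and JAK3, bound to these chains, then phosphorylate STAT5A and STAT5B, which enter the nucleus and activate targets such as *CISH*, *SOCS2* and *PIM1*. CISH and SOCS2 dampen cytokine signaling in return. In developing T cells the pathway sustains survival, and in T-ALL it is activated by mutations of *IL7R*, *JAK1*, *JAK3* and *STAT5B* in part of the patients. *IL2RA* encodes the alpha chain of the IL2 receptor, which shares the gamma chain and STAT5, and its transcription is itself raised by STAT5.

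Promoter sequences of 2 members are shown, that of *CISH* as the classical STAT5 target of the axis and that of *IL7R* as the member with the largest difference. They are the 250 bases before a transcription start in RefSeq (GRCh38.p14), read 5′ to 3′ on the gene's strand. In *CISH* (chr3:50611775-50612024, minus strand) capitals mark the palindromic STAT element TTCNNNGAA, searched on both strands. In *IL7R* (chr5:35856641-35856890, plus strand) they mark the ETS core ACTTCC or its complement GGAAGT. Both motifs were chosen after the sequences and the members' values had been seen.
*CISH*: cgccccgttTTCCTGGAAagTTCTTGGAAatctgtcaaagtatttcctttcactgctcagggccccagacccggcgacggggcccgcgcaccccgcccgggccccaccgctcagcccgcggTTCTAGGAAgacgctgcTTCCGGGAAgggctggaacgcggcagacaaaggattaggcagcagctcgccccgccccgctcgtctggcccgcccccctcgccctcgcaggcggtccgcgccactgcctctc
*IL7R*: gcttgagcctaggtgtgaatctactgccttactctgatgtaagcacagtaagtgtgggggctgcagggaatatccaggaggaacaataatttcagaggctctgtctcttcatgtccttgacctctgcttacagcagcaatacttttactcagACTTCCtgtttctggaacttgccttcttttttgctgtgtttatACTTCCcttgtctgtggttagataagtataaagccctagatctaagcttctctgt

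The STAT element occurred 4 times in the *CISH* window, as TTCCTGGAA, TTCTTGGAA, TTCTAGGAA and TTCCGGGAA, which began 241, 230, 129 and 112 bases before the start. Of all 35116 promoter windows of this length, 6.57% held at least 1 such element and 10 held 3 or more. RefSeq windows were matched for 9 of the 10 members, with 13 windows in all, and only the *CISH* window held the element. The member without a window was *SOCS2*, whose promoter was therefore not searched. The *IL7R* window held no TTCNNNGAA and held ACTTCC at 98 and 55 bases before the start, a hexamer that 19.5% of all windows held on one strand or the other. These matches describe the letters of the windows, since binding was not measured here.

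Values are normalized log2 intensities, so that a difference of 1 is a doubling, and changes are read within a probe. Signal over different probes was used only to pick the brightest probe of a gene and to sum marker lists. Groups were compared with limma over all 9 arrays, with p adjusted over the 33595 tested probes by the Benjamini-Hochberg method and a threshold of 0.05. Same-numbered arrays departed jointly from the means of their groups, so each result is also given with the replicate number as a block, that is, with each siRNA array read against the control array of its own replicate. *PHF6* itself (A_23_P171385) was 11.07, 11.17 and 10.86 on control arrays 1 to 3, 9.39, 9.69 and 9.12 with siRNA1, and 9.20, 9.28 and 9.14 with siRNA2, so every siRNA array was below every control array. Between 29694 and 33751 probes per array were well above background, and replicates 1 and 2 of every group shared a slide while replicate 3 was on another. The 13 T-lineage and T-ALL markers checked, among them *CD3D*, *CD1A* and *TLX1*, were well above background on all 9 arrays. Of markers of other blood lineages, *CD33*, *HBB* and *KLRD1* were above background on 0 arrays, whereas *NKG7* and *GNLY* were on all 9.

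Of the 13 member probes, limma without the block called 0 for both siRNAs together against control, where 0.00893% of all tested probes were called, and 2 of the 13 had an unadjusted p under 0.05, as did 7.43% of all tested probes. With the block it called 2, *IL7R* higher and *STAT5A* lower, against 2.74% of all tested probes, 1.85% higher and 0.881% lower. For siRNA1 alone and for siRNA2 alone the count was again 0 without the block, against 0.00893% and 0.0119% of all probes. With the block, *IL7R* was the 1 member called with each siRNA, against 0.947% and 1.64%. With 1 probe per gene, 3 members were higher and 7 lower with the siRNAs, and their median log2 fold change was -0.11 beside -0.00 over all tested probes. No member probe separated the 6 siRNA arrays from the 3 control arrays without overlap, which 3.89% of all probes did, 1.84% above and 2.06% below. In bulk RNA, a change in the share of cells that express a gene and a change in its RNA per cell cannot be told apart.

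*IL7R*, the ligand-binding alpha chain, showed the largest difference of the 10 members. Its probe (A_23_P404494) was 6.94, 8.02 and 7.51 on control arrays 1 to 3. With siRNA1 it was 7.52, 8.99 and 9.14, and with siRNA2 it was 8.32, 9.35 and 9.24. Each siRNA array was thus above the control array of its own replicate, but control replicate 2 was higher than siRNA1 replicate 1, so that the groups overlapped. Replicate 1 was the lowest of its group in all 3 groups. Read against its own control, siRNA1 was higher by 0.58, 0.98 and 1.63 and siRNA2 by 1.38, 1.34 and 1.73 in replicates 1, 2 and 3. The log2 fold change of both siRNAs was 1.27, a 2.41-fold difference. The 95% interval of this fold was 1.35 to 4.31 without the block and 1.93 to 3.03 with it. In limma its adjusted p was 0.645 without the block (standard error 0.38) and 0.00652 with it (standard error 0.15). By slide, the difference was 1.07 on the first and 1.68 on the other. A two-sided exact permutation test of 6 against 3 arrays gave p = 0.0476, and an exact permutation of which array served as control within each replicate gave p = 0.037, the smallest that this scheme can give.

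Over 28 alternative settings the *IL7R* log2 fold change lay between 1.00 and 1.53, and the adjusted p from limma between 0.00508 and 0.998. It passed in 7 of the 9 settings with the block and in 0 of the 19 without. The blocked call was lost without replicate 2 (log2 fold change 1.33, adjusted p = 0.0927 from limma) and with VSN fitted to the processed signal (1.24, adjusted p = 0.0596 from limma). Between the siRNAs, *IL7R* was higher with siRNA2 by 0.42 (95% interval 0.04 to 0.80 with the block), which did not pass (adjusted p = 0.485 from limma).

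The common gamma chain, *IL2RG*, was measured by 2 probes that both lay lower with the siRNAs by small amounts. Probe A_23_P148473 was 12.23, 12.41 and 12.26 on control arrays, 12.07, 12.21 and 12.07 with siRNA1, and 11.90, 12.24 and 11.91 with siRNA2. Probe A_33_P3290394 was 14.08, 14.09 and 13.90 on control arrays, 13.98, 13.88 and 13.83 with siRNA1, and 13.69, 13.98 and 13.57 with siRNA2. On both probes all 6 siRNA arrays were below the control of their own replicate, although the groups overlapped. The log2 fold changes were -0.23 and -0.20, and neither passed in limma, with adjusted p of 0.725 and 0.759 without the block and 0.140 and 0.244 with it. The exact permutation p of 6 against 3 arrays was 0.0476 for the first probe and 0.0952 for the second. Within replicates the exact permutation p was 0.037 and 0.111. For the first probe both values equal those of *IL7R* and *STAT5A*. Together with *STAT5A*, 3 of 13 member probes were below their own control on all 6 arrays, and *IL7R* was the 1 probe above on all 6. Over all probes with a value on every array these shares were 10.8% and 10.7%.

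*IL2RA*, the alpha chain of the IL2 receptor, was close to background. Probe A_23_P127288 was 5.03, 5.04 and 4.74 on control arrays, 5.04, 5.12 and 5.57 with siRNA1, and 4.81, 5.20 and 5.18 with siRNA2, and it was well above background on 8 of 9 arrays. Its siRNA1 array of replicate 3 was the highest, and the remaining arrays overlapped. The other probe, A_24_P230563, was well above background on 5 of 9 arrays and ranged from 4.45 to 5.19. Log2 fold changes of 0.22 and 0.19 did not pass in limma (adjusted p = 0.389 and 0.511 with the block), and for the second probe the sign turned without replicate 2. Without replicate 3 the first value was 0.01 with the block, and 75th percentile scaling moved the values to 0.57 and 0.72, also without a call.

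Neither receptor-associated kinase passed. *JAK1*, which pairs with the alpha chain, was 8.78, 8.60 and 8.72 on control arrays, 8.61, 8.25 and 8.27 with siRNA1, and 8.64, 8.74 and 8.53 with siRNA2 (A_33_P3784283). It was below its own control on 5 of 6 siRNA arrays, the exception being siRNA2 replicate 2. Its log2 fold change was -0.32 with siRNA1 and -0.06 with siRNA2, and the difference between the siRNAs, 0.26 (95% interval 0.01 to 0.52 with the block), did not pass either (adjusted p = 0.507 from limma). *JAK3*, which pairs with the gamma chain, had 2 probes. The brighter, A_24_P59667, was 13.84, 13.72 and 13.43 on control arrays, 13.81, 13.49 and 13.20 with siRNA1, and 13.86, 13.66 and 13.41 with siRNA2. The arrays followed the replicate number, with replicate 1 highest and replicate 3 lowest in each group. The log2 fold change was -0.09 for this probe and -0.12 for A_23_P329112, whose values ran from 7.34 to 7.92, and the 95% intervals with the block were -0.28 to 0.09 and -0.31 to 0.06.

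Of the paired transcription factors, *STAT5A* was lower with both siRNAs. Its probe (A_23_P207367) was 10.07, 9.90 and 9.78 on control arrays 1 to 3. It was 9.78, 9.34 and 9.24 with siRNA1, and 9.74, 9.47 and 9.39 with siRNA2. All 6 siRNA arrays were below the control of their own replicate, and the groups met at 9.78, where control replicate 3 and siRNA1 replicate 1 coincided to this precision. The mean difference from the own control was -0.31, -0.50 and -0.47 in replicates 1 to 3, and -0.40 and -0.47 on the 2 slides. With both siRNAs the log2 fold change was -0.42. Its 95% interval was -0.76 to -0.09 without the block and -0.62 to -0.23 with it. The change passed with the block (adjusted p = 0.0353 from limma) and not without it (0.646). The exact permutation p was 0.0476 for 6 against 3 arrays and 0.037 within replicates. With either siRNA alone the probe did not pass, also with the block, where the adjusted p from limma was 0.0615 for siRNA1 and 0.0805 for siRNA2. The call for both siRNAs held in 4 of 9 settings with the block and in 0 of 19 without. It was lost when replicate 1, 2 or 3 was left out (adjusted p = 0.177, 0.130 and 0.113 from limma).

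*STAT5B*, the paralog that lies beside *STAT5A*, was 11.93, 12.05 and 11.78 on control arrays, 11.89, 11.80 and 11.69 with siRNA1, and 11.81, 11.71 and 11.85 with siRNA2 (A_33_P3380867). Its groups overlapped and its log2 fold change of -0.13 did not pass (adjusted p = 0.448 from limma with the block, 95% interval -0.34 to 0.08). The fall of *STAT5A* exceeded that of *STAT5B* by 0.29 on the log2 scale, and by between 0.09 and 0.46 on the single siRNA arrays read against their own controls. An exact permutation test of this difference over 84 splits gave p = 0.0476 (two-sided). The contrast of the pair was not among the planned tests. Its p draws on the same *STAT5A* values as the tests above and is no separate support for them.

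**Figure D1:**
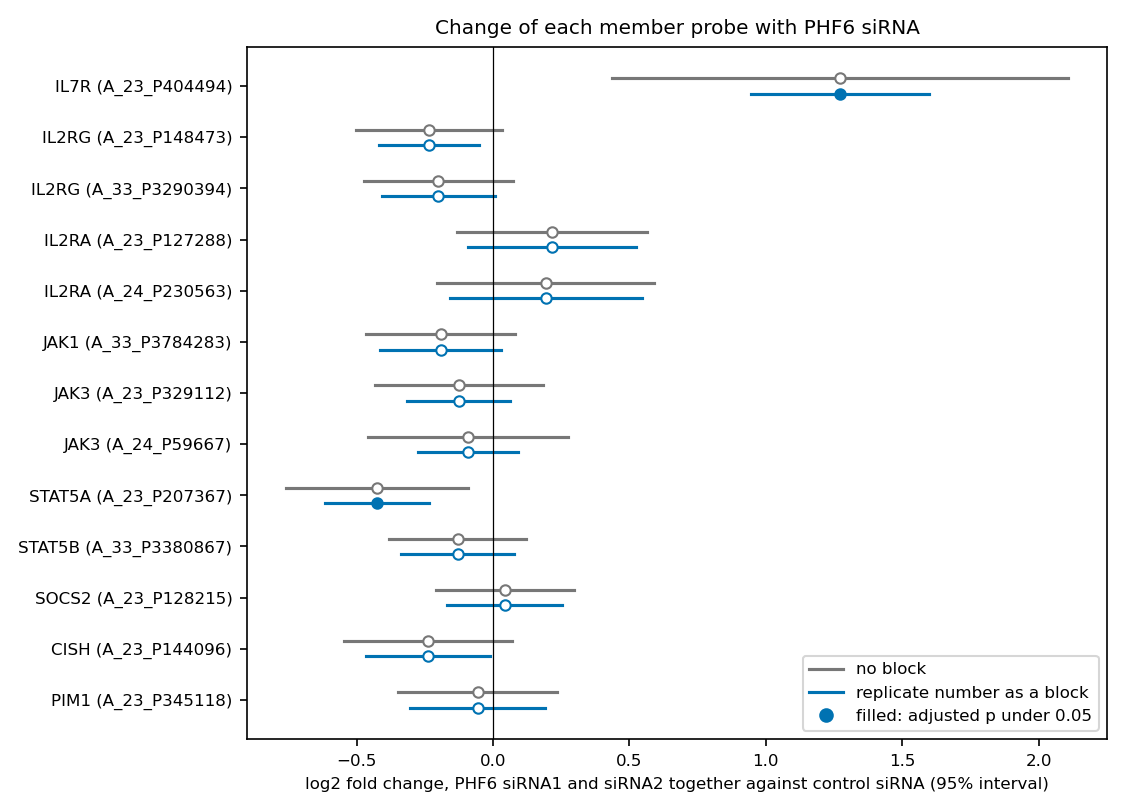
Log2 fold change of each member probe for both *PHF6* siRNAs against control siRNA (points) with its 95% interval (lines), without (grey) and with (blue) the replicate number as a block. The points are filled for *IL7R* (1.27) and *STAT5A* (-0.42) with the block, where the adjusted p was under 0.05, and open for all others.

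None of the 3 STAT5 targets passed in either fit. *CISH*, the feedback inhibitor whose promoter holds the 4 STAT elements shown above, was 15.18, 14.88 and 14.93 on control arrays, 14.90, 14.54 and 14.99 with siRNA1, and 14.88, 14.67 and 14.58 with siRNA2 (A_23_P144096). It was below its own control on 5 of 6 siRNA arrays, the exception being siRNA1 replicate 3, and its log2 fold change of -0.24 did not pass (adjusted p = 0.211 from limma with the block). *SOCS2*, a second feedback inhibitor, was 14.43, 14.51 and 14.42 on control arrays, 14.31, 14.27 and 14.54 with siRNA1, and 14.51, 14.74 and 14.61 with siRNA2 (A_23_P128215). Its log2 fold change was 0.04, with a 95% interval of -0.17 to 0.25 with the block, and its sign turned in 3 of 28 alternative settings.

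*PIM1*, a serine/threonine kinase induced by cytokines, was 14.11, 14.16 and 13.81 on control arrays, 13.70, 13.71 and 13.87 with siRNA1, and 14.39, 14.11 and 14.03 with siRNA2 (A_23_P345118). Every siRNA2 array was above every siRNA1 array, while the control arrays lay across both. It was the 1 member probe of 13 without overlap between the siRNAs, which 6.74% of all probes were. The log2 fold change was -0.27 with siRNA1 and 0.15 with siRNA2, so that their mean was -0.06. The difference between the siRNAs, 0.42 (95% interval 0.13 to 0.70 with the block), was the largest absolute one of the members beside that of *IL7R*, and it did not pass after adjustment (adjusted p = 0.388 from limma with the block). In all, 0 of 13 member probes differed between the siRNAs, against 0 of all tested probes without the block (844 had an unadjusted p under 0.05) and 0.0387% with it.

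Values of the members across the 9 arrays were also set against each other, as a description over arrays that share controls, replicate numbers and slides. *IL7R* and *STAT5A* ran opposite to each other (Pearson r = -0.911), and *IL7R* and *CISH* less so (r = -0.752), whereas *PIM1* did not follow *IL7R* (r = 0.023). Among 14662 named genes with 1 probe each, those most like *IL7R* were *CYP3A7*, *CCR2* and *IRS2*, with r = 0.958 each. For *STAT5A* they were *PDE6G* (r = 0.982), *RELT* and *APOBEC3G* (r = 0.979 each).

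The wider pathway was described through 6 lists of genes, with 1 probe for each gene. Without the block limma called 0 genes of every list for both siRNAs. With the block it called *IL9R* and *KLF2*, 1 gene each in 2 of the lists, and 0 in the other lists. That fit called 2.74% of all tested probes, 1.85% higher and 0.881% lower. Whether the lists departed from these shares was not tested.

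Of the other ligands and receptor chains that use the common gamma chain or bind IL7R-containing complexes, 9 of 13 were tested, 1 higher and 8 lower, with a median log2 fold change of -0.14. *IL2*, *IL4*, *IL7* and *IL9*, which encode ligands, were not tested because their probes were well above background on fewer than 3 arrays. *IL9R*, which encodes the alpha chain of the IL9 receptor, was 9.80, 9.37 and 9.61 on control arrays, 9.38, 9.14 and 9.20 with siRNA1, and 9.14, 8.89 and 8.98 with siRNA2. It was below its own control on all 6 siRNA arrays, and the groups overlapped by 1 pair of arrays. The log2 fold change of -0.47 passed with the block (adjusted p = 0.0238 from limma) and not without it (0.617). That call held in 4 of 9 settings with the block and in 0 of 19 without. Among others, it was lost when replicate 1, 2 or 3 was left out (adjusted p = 0.212, 0.0981 and 0.0822 from limma).

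Among transcription factors known to act on *IL7R*, all 9 were tested, 6 higher and 3 lower, with a median of 0.05. *KLF2*, a zinc finger factor of quiescent lymphocytes, was 8.81, 8.85 and 8.82 on control arrays, 9.29, 9.99 and 9.87 with siRNA1, and 9.48, 9.84 and 9.50 with siRNA2. All 6 siRNA arrays were above all 3 control arrays, which was so for 1.84% of all probes. The log2 fold change of 0.84 passed with the block (adjusted p = 0.0126 from limma) and not without it (0.344). The call held in 7 of 9 settings with the block and in 0 of 19 without. Among others, it was lost with the block when replicate 2 was left out (adjusted p = 0.109 from limma). *FOXO1*, a direct activator of *IL7R* in lymphocytes, had a log2 fold change of 0.25 (blocked adjusted p = 0.144, limma), and *GFI1*, a repressor, had -0.01 (blocked adjusted p = 0.973, limma). These 2 genes are named here after their values were seen.

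In the remaining 4 lists 0 genes passed with or without the block, and the gene with the lowest blocked p is given for each. The other JAKs and STATs had 4 genes higher and 3 lower (median 0.05). *JAK2*, the kinase of erythropoietin and thrombopoietin receptors, was 8.11 ± 0.37 (SD, n = 3) with control siRNA, 8.41 ± 0.38 with siRNA1 and 8.50 ± 0.35 with siRNA2, above its own control on 6 of 6 siRNA arrays (blocked adjusted p = 0.0596, limma). The negative regulators had 16 of 18 genes tested, 6 higher and 10 lower (median -0.07). *PTPN6*, which encodes the tyrosine phosphatase SHP-1, was 10.52 ± 0.23 (SD, n = 3), 10.23 ± 0.22 and 9.99 ± 0.26 in the same order, below its own control on 6 of 6 siRNA arrays (blocked adjusted p = 0.0833, limma). The further STAT5 and IL7 response genes had 10 of 12 tested, 4 higher and 6 lower (median -0.05). *BCL6*, a repressor that STAT5 holds down in lymphocytes, was 10.30 ± 0.59 (SD, n = 3), 10.72 ± 0.39 and 10.87 ± 0.59, above its own control on 6 of 6 siRNA arrays (blocked adjusted p = 0.0632, limma). The list of the ABL1 kinase and its partners had 1 gene higher and 4 lower (median -0.04), and *CRKL*, an ABL1 substrate, had a log2 fold change of -0.13 (blocked adjusted p = 0.482, limma). *JAK2* and *BCL6* passed in 1 of their 28 alternative settings, the block combined with normexp and quantile normalization.

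**Figure D2:**
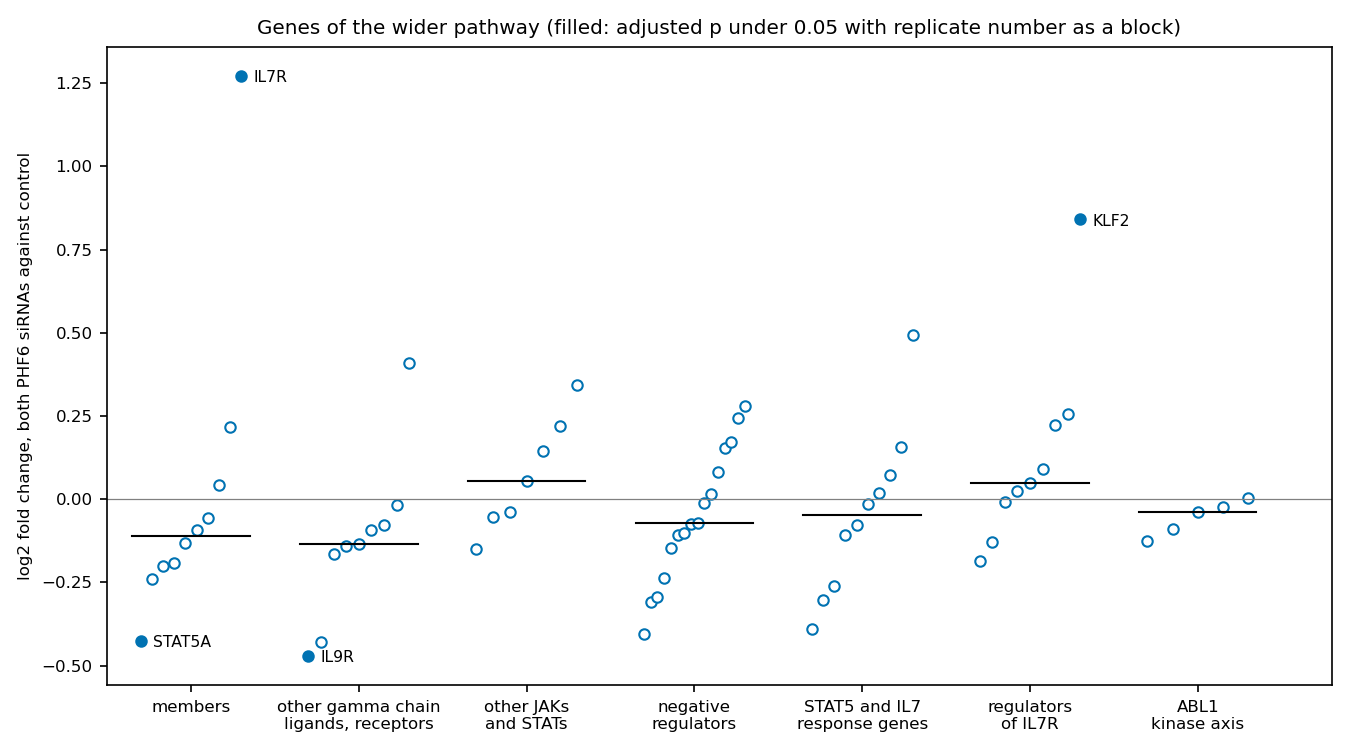
Log2 fold change for both *PHF6* siRNAs against control siRNA (y axis) of each gene of the axis and of the 6 lists around it, with 1 probe per gene (points) and the median of each list (black lines). Filled points mark *IL7R*, *STAT5A*, *IL9R* and *KLF2*, with an adjusted p under 0.05 with the replicate block, and most of the other genes lie within 0.5 of 0.

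Markers of T cells and of other blood lineages were read on the same arrays. Without the block limma called 0 of them for both siRNAs. With it, 2 of 13 T-lineage and T-ALL markers (*CD7* and *PTCRA*), 1 of 4 tested B-lineage markers (*CD79B*) and both tested NK markers (*NKG7* and *GNLY*) were called, all lower, against 0.881% of all tested probes. Of the T-lineage list 11 genes were lower and 2 higher, *CD1A* with a log2 fold change of 0.71 (blocked adjusted p = 0.0730, limma) and *CD2* with 0.14. The log2 of the summed level of this list was 17.64 to 17.82 on control arrays, 17.51 to 17.67 with siRNA1 and 17.50 to 17.58 with siRNA2. This sum overlapped between control and siRNA1, while every siRNA2 array lay below every control array. *CD3D* was its brightest marker, at a mean of 16.70 on control arrays. The NK sum was 15.12 to 15.27, 14.71 to 14.88 and 14.53 to 14.83 in the same order, and it was almost entirely the signal of *NKG7* (15.12 to 15.26 on control arrays), since *KLRD1* was above background on 0 arrays and *NCAM1* on 1. The B-lineage sum was 12.53 to 12.97, 12.35 to 12.65 and 12.25 to 12.48. It lay below all control arrays with siRNA2 and overlapped them with siRNA1, whereas the NK sum lay below them with both. The myeloid markers stood at 7.79 to 7.93, 7.81 to 7.86 and 7.76 to 7.86, and the erythroid ones at 10.75 to 11.02, 10.61 to 10.96 and 10.51 to 10.76. The part of these values in the differences of *IL7R* and *STAT5A* was not tested.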

How the data were processed

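RNA of 9 ALL-SIL samples was hybridized to 1-colour Agilent arrays of a custom mRNA and lncRNA design. For each array the authors deposited the fluorescence intensity of every spot and flags of 0 or 1, scored by Feature Extraction (version 10.5.1.1 in the array file header, 9.1 in the submitters' processing notes). The flags were not normalized. They served to leave out outlier spots, to filter probes, and to state where probes were well above background and whether spots were saturated. A second table, of log2 values that the authors had normalized with VSN, was used as an alternative and correlated with the values used here at r = 0.994 to 0.999 per array. Which intensity entered it is not given in the sources used here.

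Here, the VSN model was fitted to the median intensity without background subtraction by code written in Python 3.11.15 (least trimmed squares, quantile 0.9, 7 iterations), since the vsn package was not installed. Outlier spots were left out, repeated spots averaged, and none were saturated. A probe entered the test if it stood well above background on 3 or more arrays, and limma 3.58.1 in R 4.3.3 was run with 3 groups sharing 1 estimate of the spread. The code was tested on simulated data. Symbols came from RefSeq accessions (25729 of 57176 probes), used for names only, as the array design uses a different build. A gene stood for its brightest tested probe. Named genes were the members, *PHF6*, of each list those past the threshold or else the one with the lowest blocked p, and the 3 most correlated with *IL7R* and with *STAT5A*. The members and lists were chosen with earlier results of these data known. The replicate numbers come from the labels, and same-numbered arrays deviated together (r = 0.31 to 0.74 in 9 pairs, against -0.57 to 0.13 in 18 others). Deviations cancel within a group, so positive values in same-numbered pairs by themselves make those of the other pairs negative on average. Alternatives were the replicate number or slide as a block, other signals, normalizations, filters and spreads, the arrays of the compared groups alone, the mean of a gene's probes, and each array or replicate left out. Precision is limited by how many arrays there are and by how far a probe stands over background.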

Additional observations from a re-analysis of the deposited data

How the results depend on the processing

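Without the replicate block, 0 member probes passed under every alternative run and in all 4 comparisons. With it, limma called 2 for both siRNAs, 1 for each siRNA alone and 0 between them. Combined with VSN after local background subtraction or with the deposited table these counts were unchanged, with normexp and quantile normalization they were 2, 2, 2 and 0, with 75th percentile scaling 1, 0, 0 and 0, and with VSN on the processed signal 0 in each. These combinations were chosen after seeing the data. With the block and 1 replicate left out, the count ranged from 0 to 1 for both siRNAs, for siRNA1 and for siRNA2, and was 0 without replicate 2. Over all tested probes the block gave 919 calls, and 74, 6 and 779 after leaving out replicate 1, 2 or 3. The slide as a block gave 24. The log2 fold change turned to -0.05 for *IL2RA* (A_24_P230563) with the block without replicate 2. For *SOCS2* it turned to -0.02 with VSN on the processed signal, with and without the block, and to -0.01 with the block without replicate 3. For *PIM1* it turned to 0.03 with normexp and quantile normalization, with and without the block, to 0.04 with the block without replicate 2 and to 0.01 without control replicate 2, and its range with single arrays left out was -0.16 to 0.01. The other 10 member probes kept their direction in every alternative run. The cause of these changes was not tested.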
